A study of Mus musculus with 16 samples.

Results

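The genes described here are 47 genes of S phase and DNA replication, chosen by symbol for their known parts in origin licensing, the replication fork and the supply of nucleotides. They are 47 of 24421 genes counted in each library, and all 47 were among the 14514 genes with enough reads to be tested. The smallest count of any of them in any library was 415 reads, for Ccne2. RNA was sequenced from mouse embryonic heads of day 8.5, cut from the first branchial arch to just above the otic vesicle, in 4 groups of 4 libraries. The groups were WT embryos and embryos homozygous for an Ift88 null allele (labelled IFT88-NULL), each on a moderate diet with 2 ppm folic acid or an enriched diet with 10 ppm. Ift88 encodes a part of the intraflagellar transport machinery that builds cilia. Every group had been on its diet for 3 generations, with no group on a diet free of folic acid, and the design compares genotypes within a diet and diets within a genotype. The construction of the null allele and the litter of each embryo are not given in the sources used here, and p-values measure only the spread between these libraries, which may share litters.

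A cell copies its DNA once per cycle. Origin recognition proteins with Cdc6 and Cdt1 load the ring of MCM helicase subunits onto DNA, Cdc45 and the GINS complex switch the helicase on, and polymerases alpha, delta and epsilon then synthesise the new strands with the help of a sliding clamp, its loader and single-strand binding protein. Many of these genes are switched on together at the entry into S phase by E2F transcription factors, which are themselves released when cyclin E and its kinase phosphorylate the retinoblastoma protein. In the early embryonic head most cells divide fast, and cells that leave the cycle to become neurons switch these genes off.

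Libraries held 19249433 to 44267434 counts assigned to genes. Ift88 itself was at 2.01 to 8.61 counts-per-million (CPM, scaled for library composition) in the 8 mutants and at 9.30 to 20.9 CPM in the 8 WT libraries. The lowest WT library was moderate WT replicate 2, near the highest mutant (enriched mutant replicate 2), and the rest were at 17.9 to 20.9 CPM. Moderate WT replicate 2 was kept as WT by its label, and its genotype was not tested. In 3 libraries (moderate WT replicate 2 and moderate mutant replicates 1 and 2) the sex on the label was contradicted by Xist and Y-linked counts. Mutant replicate 1 of these was labelled male with female counts, and the other two were labelled female with male counts. Whether libraries were exchanged was not tested. Moderate mutant replicate 3 stood apart from its group in genes of the response to low oxygen, and enriched mutant replicate 3 held 189 CPM of Prl8a2, a hormone of the maternal decidua, against at most 3.46 CPM elsewhere. Markers of neural progenitors (7 genes, 926 to 1142 CPM in sum) and head mesenchyme (7 genes, 323 to 417 CPM) were present in every library, under a label of head tissue. In whole tissue, fewer cells in S phase and less RNA per cell cannot be told apart.

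Promoters of 5 members are shown because they carry the letters of an E2F site and belong to genes that differed between genotypes: 4 that were lower in mutants on the enriched diet, and Pola1, which was higher. Each run is the 250 bases before a RefSeq start (GRCm38.p6), 5′ to 3′ on the gene's strand, and capitals mark the E2F match. The windows are chr5:151651209-151651458 (minus strand) for Rfc3, chr8:75109259-75109508 (plus) for Mcm5, chr8:95633309-95633558 (plus) for Gins3, chr11:98907901-98908150 (plus) for Cdc6 and chrX:93632156-93632405 (minus) for Pola1.
Rfc3: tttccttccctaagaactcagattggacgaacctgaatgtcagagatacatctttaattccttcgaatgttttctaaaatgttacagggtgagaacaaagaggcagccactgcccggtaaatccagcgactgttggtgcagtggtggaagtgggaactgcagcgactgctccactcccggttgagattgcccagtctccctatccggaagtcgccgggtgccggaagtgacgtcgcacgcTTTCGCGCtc
Mcm5: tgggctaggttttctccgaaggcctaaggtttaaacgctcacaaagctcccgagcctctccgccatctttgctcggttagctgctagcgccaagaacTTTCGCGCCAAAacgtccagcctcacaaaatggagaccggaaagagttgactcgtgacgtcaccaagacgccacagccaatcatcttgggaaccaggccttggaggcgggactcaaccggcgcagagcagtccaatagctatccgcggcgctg
Gins3: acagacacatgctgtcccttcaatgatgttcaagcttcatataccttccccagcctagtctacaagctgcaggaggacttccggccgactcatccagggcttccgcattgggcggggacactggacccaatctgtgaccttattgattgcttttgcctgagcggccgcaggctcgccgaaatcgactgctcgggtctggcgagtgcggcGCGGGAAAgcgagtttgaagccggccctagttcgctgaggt
Cdc6: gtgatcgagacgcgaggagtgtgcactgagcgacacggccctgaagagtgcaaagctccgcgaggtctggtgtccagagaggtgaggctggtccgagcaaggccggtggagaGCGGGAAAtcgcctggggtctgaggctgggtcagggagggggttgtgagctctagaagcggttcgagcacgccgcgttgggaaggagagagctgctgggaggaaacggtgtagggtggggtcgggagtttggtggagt
Pola1: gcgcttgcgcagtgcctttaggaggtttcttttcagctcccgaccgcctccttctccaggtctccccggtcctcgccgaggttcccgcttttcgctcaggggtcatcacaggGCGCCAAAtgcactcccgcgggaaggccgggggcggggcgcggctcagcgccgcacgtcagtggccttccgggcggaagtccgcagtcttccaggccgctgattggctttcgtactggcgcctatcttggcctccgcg

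The letters searched were TTTCCCGC, TTTGGCGC, TTTCGCGC and TTTGCCGC on either strand, in windows of 300 bases (250 before to 50 after each RefSeq start). A window was found for 39 of the 47 genes. Of these, 14 genes (35.9%) held a match, and 14 of their 45 windows did (31.1%), against 744 of 32851 windows of all genes (2.26%). In Mcm5 a match on each strand overlaps the other, in one stretch from 153 to 142 bases before the start. Rfc3 has a match that ends 3 bases before its start, and a second one, not printed, begins at the start itself. The matches of Cdc6 and Pola1 both begin 138 bases before the start, and that of Gins3 begins 41 bases before it. Matches were found in each class of response: 5 of 19 members with a window that fell in mutants on the enriched diet, in 2 of 2 that rose and in 7 of 18 that did not pass. CCAAT, the letters bound by NF-Y, was present in 23 of the 39 genes (59.0%), against 41.1% of all genes with a window.

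On the enriched diet, 23 of the 47 members fell in mutants, 3 rose and 21 did not pass the threshold (quasi-likelihood test of edgeR, p adjusted by Benjamini-Hochberg over all 14514 genes, threshold 0.05). Over all genes tested, 31.2% passed in this comparison, with 16.8% lower and 14.4% higher. The members thus had 48.9% lower and 6.38% higher. At 2 ppm, 1 member rose (Cdt1) and 0 fell, where 7.62% of all genes passed (4.79% higher and 2.83% lower). In that comparison 6 of 47 members (12.8%) had an unadjusted p under 0.05, 3 of them lower and 3 higher, against 23.4% of all genes. The other tools gave 2 higher and 1 lower (DESeq2) or 1 higher and 0 lower (limma-voom). The median log2 fold change of the members was -0.20 on the enriched diet (all genes -0.01) and -0.03 on the moderate diet (all genes -0.01).

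**Figure D1:**
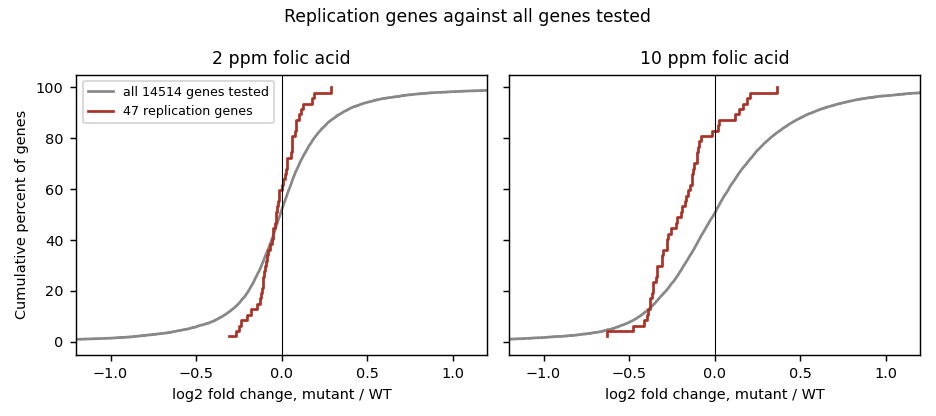
Cumulative percent of genes (vertical axis) by log2 fold change of mutant over WT (horizontal axis), for the 47 replication genes in red and all 14514 genes tested in grey, on 2 ppm (left) and 10 ppm folic acid (right). On 10 ppm the red line lies left of the grey one, with a median of -0.20 against -0.01, and on 2 ppm the medians are -0.03 and -0.01; changes beyond 1.2 on either side are not drawn.

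The falls were modest in size. The members' changes on the enriched diet ran from -0.63 (Fen1) to 0.37 (Pole), and 39 of 47 were lower in mutants, passing or not, against 50.6% of all genes. At 2 ppm the range was -0.31 (Fen1) to 0.29 (Pold2), with 28 of 47 lower against 51.9% of all genes. Complete separation of the 4 mutants from the 4 WT libraries had a share near or below that over all genes. On the enriched diet 6 members (12.8%) had all mutants below all WT, against 12.5% of all genes, and 2 (4.26%) had all mutants above, against 11.2%. On the moderate diet 0 members had all mutants below (7.06% of all genes) and 4 (8.51%) had all mutants above (8.5%), namely Cdt1, Pold1, Pold2 and E2f1.

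**Figure D2:**
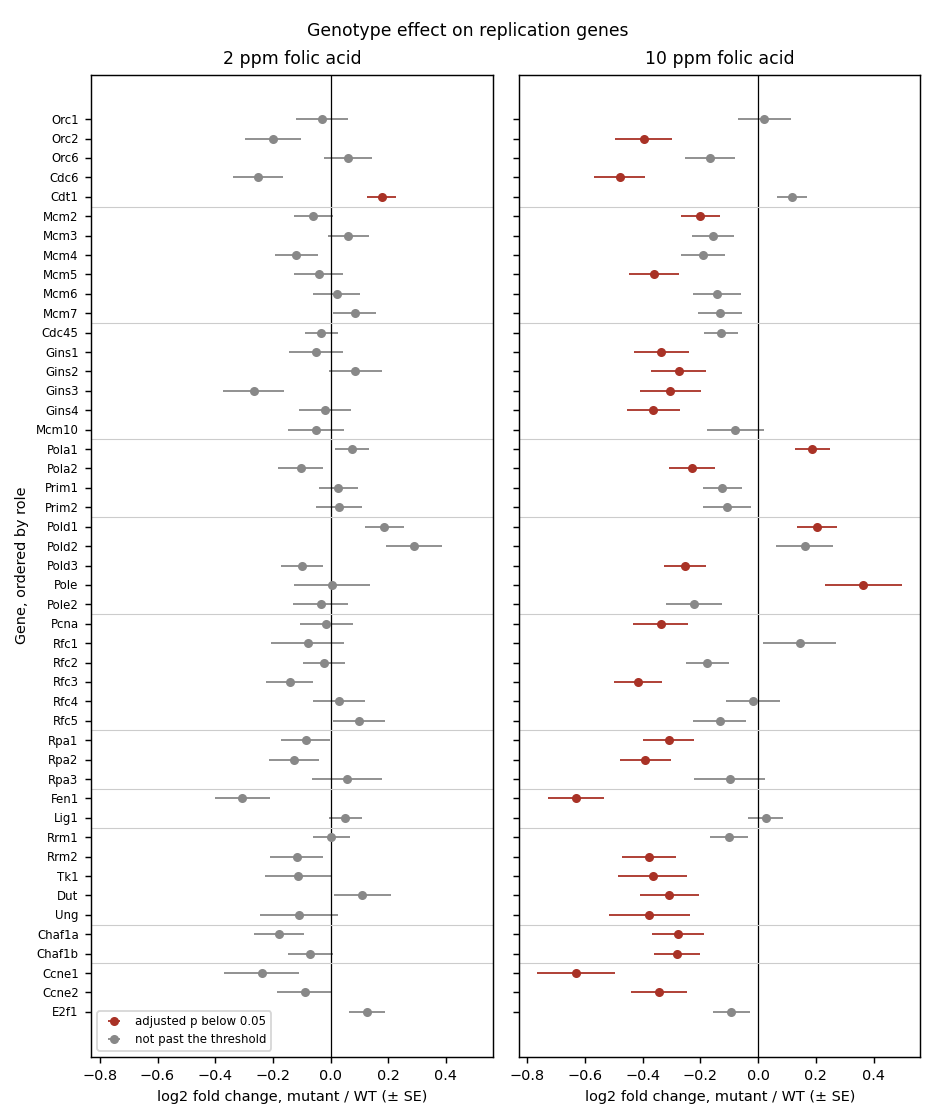
Log2 fold change of mutant over WT ± SE for each of the 47 genes, ordered by role, on 2 ppm (left) and 10 ppm folic acid (right), with 4 libraries a group; red marks an adjusted p below 0.05. On 10 ppm 26 genes are red, 23 of them left of 0, and on 2 ppm Cdt1 is the 1 red gene.

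Licensing proteins mark origins before S phase. Of the 5 members of this role, 2 fell on the enriched diet (Cdc6 and Orc2) and 3 did not pass (Orc1 at 0.02 ± 0.09 and Orc6 at -0.17 ± 0.09 on the log2 scale, and Cdt1). Cdc6 (chr11:98907801-98923940, mm10, as all gene coordinates here) encodes the ATPase that loads the helicase at origins. It was at 125, 122, 116 and 115 CPM in moderate WT replicates 1 to 4 and at 94.3, 98.1, 121 and 87.8 CPM in moderate mutants. Enriched WT libraries held 108, 126, 115 and 105 CPM and enriched mutants 89.2, 78.0, 97.2 and 72.4 CPM. All 4 enriched mutants lay below all 4 enriched WT libraries, while moderate mutant replicate 3 sat among the WT libraries. The log2 fold change was -0.48 ± 0.09 (SE) on the enriched diet, where Cdc6 fell by 28.3% (edgeR, adjusted p = 0.00124), and -0.25 ± 0.09 on the moderate diet (adjusted p = 0.0847).

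Orc2 (chr1:58462771-58505109) encodes a subunit of the origin recognition complex. Its moderate values were 147, 144, 135 and 119 CPM in WT and 109, 116, 144 and 106 CPM in mutants, and its enriched values 133, 146, 135 and 119.7 CPM in WT and 104, 93.3, 125 and 95.6 CPM in mutants. The groups overlapped on both diets, through replicate 3 of the mutants each time. Orc2 fell on the enriched diet (log2 fold change -0.40 ± 0.10, adjusted p = 0.00781) and was at -0.20 ± 0.10 on the moderate diet (adjusted p = 0.226). Of its exon length, 29.8% is shared with Nif3l1 on the other strand, and reads there cannot be told apart without strand information.

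Cdt1 (chr8:122568015-122573554), the partner of Cdc6 in helicase loading, went the other way. It was at 132, 133, 140.4 and 137 CPM in moderate WT and 155, 159, 149 and 149.9 CPM in moderate mutants. Enriched WT had 147, 139.7, 149 and 145 CPM and enriched mutants 161, 156, 155 and 154 CPM. It was the 1 member of 47 in which all 8 mutants lay above all 8 WT libraries (2.51% of all genes did so), by a narrow margin: the lowest mutant was at 149.2 CPM and the highest WT at 149.1 CPM. In 0 members did all 8 mutants lie below all 8 WT libraries (1.93% of all genes). Cdt1 rose by 0.18 ± 0.05 on the log2 scale on the moderate diet (adjusted p = 0.0398) and had 0.12 ± 0.05 on the enriched diet (adjusted p = 0.0935). Averaged over both diets, its rise of 0.15 ± 0.04 passed (adjusted p = 0.00498). The moderate call passed in 16 of 27 other settings and was lost, among others, without any of moderate WT replicates 1 to 4 or moderate mutant replicates 1, 2 and 4.

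The MCM subunits, which form the helicase ring, were among the most abundant members per length of exon. Mcm5, Mcm3, Mcm6 and Mcm4 had 156, 148, 129 and 121 CPM per kilobase of exon over the 16 libraries, and Rrm2 had 149, while Ccne2 (6.86) and Tk1 (9.05) had the least. Of the 6 subunits, Mcm2 and Mcm5 fell on the enriched diet and Mcm3, Mcm4, Mcm6 and Mcm7 did not pass, all 6 with negative changes. Mcm5 (chr8:75109569-75128439) was at 679.9, 662, 631 and 689 CPM in moderate WT and 608, 712, 721 and 547 CPM in moderate mutants. Its enriched values were 677, 664, 690.1 and 581 CPM in WT and 556, 491, 582 and 462 CPM in mutants. Moderate mutants straddled their WT group, with replicates 2 and 3 above it and 1 and 4 below. On the enriched diet, mutant replicates 1, 2 and 4 lay below all WT libraries and replicate 3 just reached the lowest of them. The log2 fold change was -0.36 ± 0.09 on the enriched diet (adjusted p = 0.00642) and -0.04 ± 0.09 on the moderate diet (adjusted p = 0.822).

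Mcm4 (chr16:15623897-15637400) was at 486, 489, 455 and 466 CPM in moderate WT and 404, 453, 494 and 397 CPM in moderate mutants, and at 453, 465, 429 and 392 CPM in enriched WT and 382, 351, 445 and 381 CPM in enriched mutants. Its groups overlapped on both diets. It passed only when both diets were averaged (-0.16 ± 0.05, adjusted p = 0.0321), with -0.19 ± 0.08 on the enriched diet (adjusted p = 0.0642). Mcm2 fell by 0.20 ± 0.07 on the log2 scale on the enriched diet (adjusted p = 0.036), a call that held in 8 of 27 other settings. The other subunits were at -0.16 ± 0.07 (Mcm3), -0.14 ± 0.08 (Mcm6) and -0.13 ± 0.08 (Mcm7) on the log2 scale.

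Of the 6 members that activate the helicase, all 4 GINS genes fell on the enriched diet, and Cdc45 (-0.13 ± 0.06, adjusted p = 0.101) and Mcm10 (-0.08 ± 0.10, adjusted p = 0.571) did not pass. Gins4 (chr8:23226616-23237659), a subunit of the ring that joins Cdc45 to the helicase, was at 71.4, 73.7, 67.7 and 74.2 CPM in moderate WT and 72.1, 77.7, 75.3 and 57.9 CPM in moderate mutants. Its enriched levels were 82.0, 76.6, 78.3 and 70.4 CPM in WT and 64.6, 58.5, 66.9 and 53.0 CPM in mutants. Enriched mutants lay below enriched WT without overlap, and moderate mutants overlapped their WT group with replicate 4 alone far below it. The changes were -0.36 ± 0.09 (adjusted p = 0.0079) and -0.02 ± 0.09 (adjusted p = 0.928).

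Gins3 (chr8:95633453-95645060) differed from Gins4 in that its change was nearly the same on both diets. Its values were 29.1, 29.6, 30.6 and 28.0 CPM in moderate WT, 22.5, 23.2, 29.3 and 22.3 CPM in moderate mutants, 27.3, 30.9, 27.6 and 31.2 CPM in enriched WT and 21.4, 21.2, 25.3 and 27.3 CPM in enriched mutants. On the moderate diet only replicate 3 of the mutants reached the WT values, and on the enriched diet all mutants but replicate 4 lay below them. It fell on the enriched diet (-0.30 ± 0.11, adjusted p = 0.0401), with -0.27 ± 0.11 on the moderate diet (adjusted p = 0.135), and fell in the average over diets (-0.29 ± 0.08, adjusted p = 0.00796). The enriched call held in 10 of 27 other settings. Gins1 and Gins2 were at -0.34 ± 0.10 (adjusted p = 0.0153) and -0.28 ± 0.09 (adjusted p = 0.0375) on the enriched diet. Gins2 shares 67.3% of its exon length with Gse1 on the other strand. Its counts may hold reads of that gene or lack reads set aside as ambiguous, as the strand option is not given.

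The polymerase genes were mixed, and all 3 members that rose on the enriched diet encode catalytic subunits: Pola1 of polymerase alpha, Pold1 of polymerase delta and Pole of polymerase epsilon. Their accessory partners Pola2 and Pold3 fell. Pola1 (chrX:93304767-93632155), which extends the primers that primase lays down, was at 118, 124, 113 and 112 CPM in moderate WT and 113, 121, 132 and 125 CPM in moderate mutants. At 10 ppm it was at 99.2, 119, 97.4 and 95.9 CPM in WT and 121, 111, 132 and 117 CPM in mutants. Enriched WT replicate 2 was as high as the mutants, and the other 3 enriched WT libraries lay below every mutant. Pola1 is X-linked, and by label and counts that replicate was female and the other 3 male. Enriched mutant replicates 1 and 3 were female and 2 and 4 male. The part of sex in the change was not tested. Pola1 rose by 0.19 ± 0.06 on the log2 scale on the enriched diet (adjusted p = 0.0295) and had 0.07 ± 0.06 on the moderate diet (adjusted p = 0.49). The enriched call was kept in 22 of 27 other settings. It was lost, among others, with sex read from counts and without the libraries whose sex label was contradicted.

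Pola2 (chr19:5940542-5964202), the regulatory subunit of the same enzyme, was at 118, 119, 115 and 117 CPM in moderate WT and 105, 113, 118 and 100.02 CPM in moderate mutants, and at 128, 113, 119 and 119 CPM in enriched WT and 98.4, 88.5, 115 and 110.2 CPM in enriched mutants. Enriched mutant replicate 3 overlapped the WT group and the other 3 lay below it. It fell by 0.23 ± 0.08 on the log2 scale on the enriched diet (adjusted p = 0.0394), a call kept in 10 of 27 other settings, with -0.10 ± 0.08 on the moderate diet (adjusted p = 0.461). Prim1 and Prim2, the primase subunits, were at -0.12 ± 0.07 and -0.11 ± 0.08 on the enriched diet and did not pass.

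Pold1 (chr7:44532746-44548849) was at 143, 141, 155 and 154 CPM in moderate WT and 166, 189, 159 and 162 CPM in moderate mutants. Enriched WT stood at 159.9, 144, 150.0 and 141 CPM and enriched mutants at 177, 163, 179 and 167 CPM. Mutants lay above WT without overlap on each diet. The change was almost the same on both, 0.20 ± 0.07 on the enriched diet (adjusted p = 0.037) and 0.19 ± 0.07 on the moderate diet (adjusted p = 0.107), and the average of 0.20 ± 0.05 passed (adjusted p = 0.00604). Its partner Pold2 (chr11:5872180-5878292) was at 94.5, 95.4, 97.7 and 99.6 CPM in moderate WT, 114, 141, 109.6 and 109 CPM in moderate mutants, 109.6, 100.2, 112 and 95.5 CPM in enriched WT and 131, 122, 125 and 96.3 CPM in enriched mutants. All moderate mutants lay above moderate WT, with replicate 2 far above the rest, and enriched mutant replicate 4 sat at the lower end of the WT values. Pold2 passed in the average (0.23 ± 0.07, adjusted p = 0.0186) and on neither diet alone (0.29 ± 0.10, adjusted p = 0.0779, on the moderate and 0.16 ± 0.10, adjusted p = 0.222, on the enriched diet).

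Pold3 (chr7:100082111-100121565), another accessory subunit of polymerase delta, moved against Pold1. It was at 194, 191, 184 and 174 CPM in moderate WT and 169, 165, 195 and 164 CPM in moderate mutants, and at 191, 196, 177 and 169 CPM in enriched WT and 156, 145, 177 and 149 CPM in enriched mutants. Replicate 3 of the mutants overlapped the WT values on both diets, and the other enriched mutants lay below them. Pold3 fell on the enriched diet (-0.25 ± 0.07, adjusted p = 0.017), with -0.10 ± 0.07 on the moderate diet (adjusted p = 0.437). Pole (chr5:110286306-110337474), the leading-strand polymerase, was at 125, 106, 123 and 104 CPM in moderate WT, 115, 108, 109 and 128 CPM in moderate mutants, 95.6, 112, 88.5 and 116 CPM in enriched WT and 103, 113, 140.5 and 169 CPM in enriched mutants. Its enriched rise of 0.37 ± 0.13 (adjusted p = 0.0486) rested on mutant replicates 3 and 4, with replicates 1 and 2 inside the WT range. The call was lost, among others, without enriched mutant replicate 3 or 4 and without enriched WT replicate 1 or 3. It was also lost with limma-voom, with no sex covariate and with sex read from counts (16 of 27 other settings kept it). Pole2, its accessory subunit, was at -0.22 ± 0.10 on the enriched diet (adjusted p = 0.0945).

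The sliding clamp Pcna and the loader subunit Rfc3 fell on the enriched diet, and the loader subunits Rfc1 (0.14 ± 0.13), Rfc2 (-0.18 ± 0.07), Rfc4 (-0.02 ± 0.09) and Rfc5 (-0.13 ± 0.09) did not pass. Rfc3 (chr5:151642756-151651242) was at 81.7, 85.0, 79.5 and 85.2 CPM in moderate WT and 73.9, 74.9, 82.7 and 68.7 CPM in moderate mutants. Its level was 87.6, 85.9, 87.0 and 82.7 CPM in enriched WT and 66.0, 55.0, 79.3 and 63.3 CPM in mutants. All enriched mutants were below all enriched WT libraries, replicate 2 the furthest, and the moderate groups overlapped through mutant replicate 3. The change was -0.42 ± 0.08 on the enriched diet, where Rfc3 fell by 25.03% (adjusted p = 0.00213), and -0.14 ± 0.08 on the moderate diet (adjusted p = 0.314).

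Pcna (chr2:132249162-132253314) was at 179, 176, 164 and 201 CPM in moderate WT and 170.3, 193, 193 and 156 CPM in moderate mutants, and at 185, 172, 194 and 167 CPM in enriched WT and 147, 131, 176 and 131 CPM in enriched mutants. On the moderate diet the groups overlapped in part, with mutant replicate 4 below every WT library and WT replicate 4 above every mutant. Enriched mutant replicate 3 lay within the WT range, and the other 3 lay below it. The fall on the enriched diet was 0.34 ± 0.09 on the log2 scale (adjusted p = 0.0142), against -0.01 ± 0.09 on the moderate diet (adjusted p = 0.946). Pcna has 2 annotated processed pseudogenes, Pcna-ps1 and Pcna-ps2, that could share reads with it.

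Replication protein A coats the unwound strands. Its large and middle subunits Rpa1 and Rpa2 fell on the enriched diet and Rpa3 did not pass (-0.10 ± 0.12, adjusted p = 0.568). Rpa2 (chr4:132768332-132778752) was at 151, 155, 145 and 156 CPM in moderate WT, 135, 144, 157 and 121 CPM in moderate mutants, 167, 152, 168 and 148 CPM in enriched WT and 131, 117, 141 and 106 CPM in enriched mutants. The enriched groups did not overlap. Rpa1 (chr11:75298166-75348324) was at 296, 299, 283 and 302 CPM in moderate WT, 266, 294, 306 and 245 CPM in moderate mutants, 310.2, 302, 296 and 253 CPM in enriched WT and 249, 232, 280.4 and 201 CPM in enriched mutants, and its enriched groups overlapped, with WT replicate 4 low and mutant replicate 3 high. On the enriched diet the changes were -0.39 ± 0.09 for Rpa2 (adjusted p = 0.00412) and -0.31 ± 0.09 for Rpa1 (adjusted p = 0.015). The moderate changes were -0.13 ± 0.09 (adjusted p = 0.397) and -0.09 ± 0.09 (adjusted p = 0.593).

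Fen1, which trims the flaps between Okazaki fragments, had the lowest adjusted p of all 47 members, and Lig1, which seals the same junctions, did not pass in either diet. Fen1 (chr19:10199132-10204169) was at 209, 218, 197 and 213 CPM in moderate WT (209 ± 9.06, mean and SD, n = 4) and 159, 174, 202 and 142 CPM in moderate mutants (169 ± 25.6). With the enriched diet it was at 211, 209.7, 217 and 185 CPM in WT (206 ± 14.4) and 139, 119, 164 and 126 CPM in mutants (137 ± 19.8). Every enriched mutant lay below every enriched WT library, and in the moderate groups mutant replicate 3 alone reached the WT range. Fen1 fell by 35.5% on the enriched diet (log2 fold change -0.63 ± 0.10, adjusted p = 0.000435) and was at -0.31 ± 0.10 on the moderate diet (adjusted p = 0.0617). The antisense gene Gm10143 shares 78.8% of the exon length of Fen1, and reads of both cannot be told apart here.

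Lig1 (chr7:13277283-13311433) was at 345, 328, 341 and 333 CPM in moderate WT and 328, 354, 366 and 349 CPM in moderate mutants, and at 352, 325, 309.9 and 325 CPM in enriched WT and 359.9, 329, 339.9 and 320.1 CPM in enriched mutants. Its groups overlapped on both diets. The change on the enriched diet was 0.03 ± 0.06 with a 95% interval of -0.10 to 0.15 (adjusted p = 0.774).

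**Figure D3:**
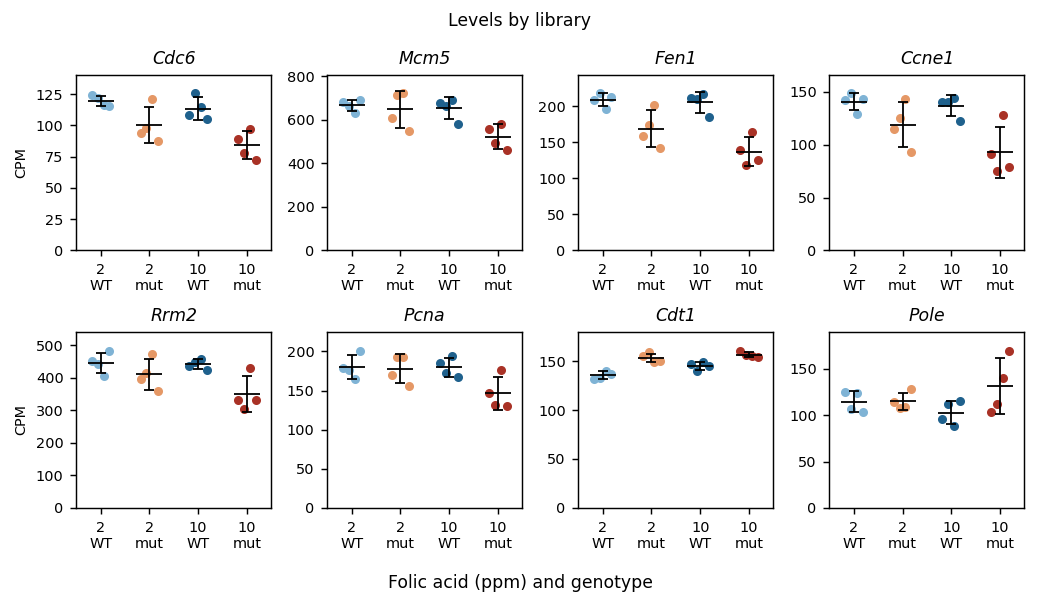
CPM of 8 members in each library (points), with the mean and SD of each group of 4 (black), by folic acid in ppm and genotype; each panel starts at 0. Cdc6 and Fen1 have all 10 ppm mutants below all 10 ppm WT libraries, Mcm5, Rrm2, Pcna and Ccne1 have 3 of 4 mutants low with replicate 3 higher, Cdt1 is higher in mutants on both diets, and the Pole mutants spread from 103 to 169 CPM.

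Nucleotide supply fell in 4 of 5 members on the enriched diet: Rrm2, Tk1, Dut and Ung. Rrm2 (chr12:24708241-24714146), the subunit of ribonucleotide reductase that rises in S phase, was at 450.4, 442, 407 and 483 CPM in moderate WT and 395, 415, 473 and 358 CPM in moderate mutants. Enriched WT embryos had 437, 448, 459 and 425 CPM and enriched mutants 332, 305, 432 and 331 CPM. Enriched mutant replicate 3 lay inside the WT range, and the other 3 lay well below it. Rrm2 was at -0.38 ± 0.09 on the log2 scale (adjusted p = 0.00745), and its partner Rrm1, whose protein persists through the cycle, did not pass (-0.10 ± 0.07, adjusted p = 0.248). Rrm2 was at -0.12 ± 0.09 on the moderate diet (adjusted p = 0.475).

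Tk1 (chr11:117815526-117826092), the thymidine kinase of dividing cells, was at 52.0, 48.8, 48.7 and 53.7 CPM in moderate WT, 45.6, 52.7, 50.6 and 39.0 CPM in moderate mutants, 55.5, 43.1, 56.1 and 47.8 CPM in enriched WT and 38.8, 35.8, 48.8 and 35.9 CPM in enriched mutants. The groups overlapped on both diets. It fell on the enriched diet (-0.37 ± 0.12, adjusted p = 0.0304, kept in 16 of 27 other settings), with -0.11 ± 0.12 on the moderate diet (adjusted p = 0.608). Dut, which keeps uracil out of DNA, and Ung, which removes it, were at -0.31 ± 0.10 (adjusted p = 0.0324) and -0.38 ± 0.14 (adjusted p = 0.0491), calls kept in 14 and 6 of 27 other settings.

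Both subunits of the chromatin assembly factor that places histones on new DNA fell on the enriched diet. Chaf1a (chr17:56040439-56072289) was at 229, 224, 238 and 222 CPM in moderate WT, 198, 169.6, 238 and 200.4 CPM in moderate mutants, 224, 222, 218 and 242 CPM in enriched WT and 179, 170.4, 203 and 195 CPM in enriched mutants. Its enriched mutants lay below enriched WT without overlap. Chaf1b (chr16:93883901-93906115) was at 118, 113, 112 and 113 CPM in moderate WT, 107, 111, 115 and 101 CPM in moderate mutants, 129, 113, 115 and 115 CPM in enriched WT and 91.0, 93.3, 117 and 91.8 CPM in enriched mutants, with mutant replicate 3 alone inside the WT range on the enriched diet. The changes there were -0.28 ± 0.09 (adjusted p = 0.0266) and -0.28 ± 0.08 (adjusted p = 0.0156), against -0.18 ± 0.09 (adjusted p = 0.229) and -0.07 ± 0.08 (adjusted p = 0.64) on the moderate diet. Of the exon length of Chaf1a, 52.5% is shared with Ubxn6, and its reads are uncertain for that reason.

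The E cyclins, which start S phase, both fell on the enriched diet. Ccne1 (chr7:38097984-38107534), cyclin E1, was at 142, 149, 129.5 and 143 CPM in moderate WT and 115, 125, 144 and 92.8 CPM in moderate mutants. At 10 ppm it was at 141, 141, 144 and 122 CPM in WT and 91.1, 74.8, 128 and 78.6 CPM in mutants. Mutant replicate 3 lay within the WT range on both diets, and the other enriched mutants lay far below it. Ccne1 fell by 35.4% on the enriched diet (-0.63 ± 0.13 on the log2 scale, adjusted p = 0.00301), with -0.24 ± 0.13 on the moderate diet (adjusted p = 0.287).

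Ccne2 (chr4:11191351-11204779), cyclin E2, was at 28.9, 24.9, 24.2 and 27.3 CPM in moderate WT, 23.7, 25.4, 28.0 and 21.7 CPM in moderate mutants, 21.9, 28.1, 24.2 and 24.5 CPM in enriched WT and 19.8, 17.96, 24.6 and 18.5 CPM in enriched mutants. Enriched mutant replicate 3 overlapped the WT group. Ccne2 shares 17.4% of its exon length with Ints8 on the other strand. It was at -0.34 ± 0.10 on the enriched diet (adjusted p = 0.0147) and -0.09 ± 0.10 on the moderate diet (adjusted p = 0.621). E2f1, the transcription factor, did not follow the cyclins: it was at -0.09 ± 0.06 on the enriched diet (adjusted p = 0.276) and 0.13 ± 0.06 on the moderate diet (adjusted p = 0.237), where all 4 mutants lay above all 4 WT libraries.

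**Figure D4:**
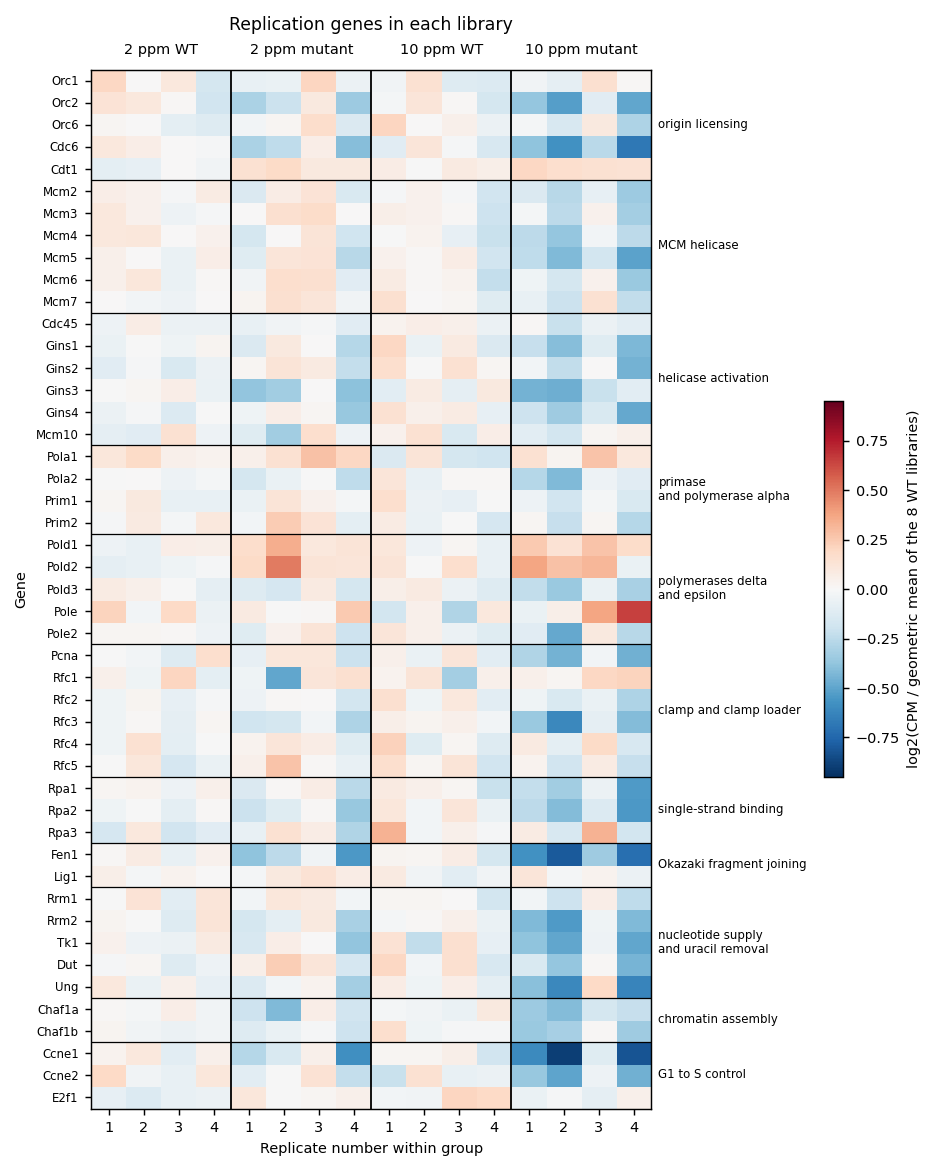
Log2 of CPM over the geometric mean of the 8 WT libraries for the 47 genes (rows, by role) in the 16 libraries (columns, by group and replicate number). Enriched mutant replicates 1, 2 and 4 are blue across most rows, replicate 3 is paler, and moderate mutants differ among themselves, with replicate 4 lowest for 36 genes.

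The members varied more among mutant libraries than among WT libraries. Their median coefficient of variation was 4.34% in moderate WT, 10.3% in moderate mutants, 7.49% in enriched WT and 11.4% in enriched mutants. That of all genes is not given here, so a larger spread in mutants is not shown to be particular to the members. Over genes at large, library pairs of a group also differed. Their chi-square per degree of freedom was 6.82 to 29.9 in moderate WT and 10.5 to 47.3 in moderate mutants. It was 8.89 to 32.6 in enriched WT and 16.1 to 70.2 in enriched mutants. The spread of the members went together: moderate mutant replicate 4 was the lowest of its group for 36 of 47 members and replicate 3 the highest for 26. In enriched mutants, replicate 3 was the highest for 36 members, replicate 4 the lowest for 24 and replicate 2 for 20. In enriched WT, replicate 4 was the lowest for 32. The shares of all genes with these ranks are not given here. Added together, the 47 members made 8860, 8857, 8468 and 8778 CPM in moderate WT and 8209, 8886, 9289 and 7889 CPM in moderate mutants. They made 8998, 8772, 8724 and 8002 CPM in enriched WT and 7900, 7175, 8662 and 7144 CPM in enriched mutants, where replicate 3 alone lay inside the WT range.

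The number of falls on the enriched diet depended on single libraries, though the direction did not. Of the 26 calls, 9 held in all 27 other settings that kept the threshold at 0.05: Orc2, Cdc6, Mcm5, Gins4, Rfc3, Rpa2, Fen1, Rrm2 and Ccne1. The other 17 were lost in at least 1 setting, and 0 changed sign. The count of 23 lower members went to 10 without enriched mutant replicate 2 (with 3154 genes called overall), 11 without enriched WT replicate 1 (3427 genes) or 3 (3023 genes), 12 without enriched mutant replicate 1 (3871 genes), and 15 without enriched mutant replicate 4 (3665 genes) or moderate WT replicate 1 (4101 genes), which lends its spread to the fit. The 3 members that rose came to 1 without enriched WT replicate 4 or enriched mutant replicate 4. Without the 3 libraries whose sex label was contradicted, 17 fell and 1 rose. Without the 3 libraries that stood apart (moderate WT replicate 2, moderate mutant replicate 3 and enriched mutant replicate 3), 22 fell and 2 rose, and all 24 of these were called with every library. The number of all genes called is not given here for these settings without 3 libraries. Without that number, the member counts alone do not show whether the members lost more calls than other genes there, which was not tested.

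When single libraries were left out, calls were lost as follows. Pcna was lost without enriched WT replicate 3 or mutant replicate 2, Rpa1 without enriched WT replicate 1 or 3 or mutant replicate 4, and Pola1 without enriched WT replicate 4 or mutant replicate 4. Pold1 was lost without enriched WT replicate 2 or 4 or mutant replicate 4, and Pold3 without enriched WT or mutant replicate 1 or 2. Gins1 was lost without enriched WT replicate 1 or 3 or mutant replicate 2 or 4, Chaf1b without enriched WT replicate 1 or mutant replicate 1, 2 or 4, and Ccne2 without enriched WT replicate 2 or 3 or mutant replicate 1 or 2. Chaf1a was lost without any enriched WT library, enriched mutant replicate 1 or 2, or replicate 1 of either moderate group. Mcm2, Gins2, Gins3, Pola2, Tk1, Dut and Ung were each lost without several libraries of both diets. They were also lost with the compared groups alone, as were Gins1, Chaf1b, Pola1, Pold1 and Pole. Ccne2 was also lost with no sex covariate. With sex read from counts, or without the libraries whose sex label was contradicted, Pola1 was lost too.

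On the moderate diet, leaving out mutant replicate 3 raised the counts: 5 members fell and 3 rose, with 2107 genes called in all in place of 1106, and the members' median change was -0.06. Without any 1 of the other 7 moderate libraries (WT replicates 1 to 4 and mutant replicates 1, 2 and 4), 0 members passed with edgeR, with 538 to 784 genes called in all.

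For diet, 0 of the 47 members and 0 of all 14514 genes passed (0.0%), in WT, in mutants or averaged over genotypes (edgeR, adjusted p). At an unadjusted p under 0.05 there were 0 members in WT (2.44% of all genes) and 0 in the average (3.62% of all genes). In mutants there were 11 of 47 members (23.4%), against 10.8% of all genes. DESeq2 passed 1 gene in WT, 3 in mutants and 1 in the average, and limma-voom passed 0 in each, with 0 members in any of them. In mutants the enriched diet went with lower values of 38 of 47 members (51.0% of all genes), with a median of -0.13 (all genes -0.01), led by Ccne1 at -0.32 ± 0.13 (adjusted p = 0.442) and Mcm5 at -0.28 ± 0.09 (adjusted p = 0.442). In WT, 38 of 47 were higher on the enriched diet (50.7% of all genes), with a median of 0.05 (all genes 0.00).

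The difference between the genotype effects on the 2 diets was tested directly, and 0 members and 0 of all genes passed (0.0%, edgeR); DESeq2 and limma-voom also passed 0. At an unadjusted p under 0.05 there were 10 of 47 members (21.3%), where 9.65% of all genes reached it. As 0 passed after adjustment, the larger number of falls on the enriched diet is not shown to differ from the moderate diet for any member. The estimate was more negative on the enriched diet for 42 of 47 members (50.4% of all genes), with a median of -0.19 (all genes -0.00). It was lowest for Dut (-0.42 ± 0.14, 95% interval -0.72 to -0.11, adjusted p = 0.501), followed by Ccne1 (-0.39 ± 0.19, -0.79 to 0.00), and highest for Pole (0.36 ± 0.19, -0.04 to 0.76). These contrasts share libraries, so their counts are set side by side and are not independent of each other.

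Averaged over both diets, 21 of 47 members fell (44.7%) and 4 rose (8.51%) in mutants. Of all genes 35.8% passed, 18.5% lower and 17.4% higher. Fen1 (-0.47 ± 0.07, adjusted p = 0.000116), Ccne1 (-0.43 ± 0.09, adjusted p = 0.0022) and Cdc6 (-0.37 ± 0.06, adjusted p = 0.000367) fell most. Those that rose were Pold2, Pold1, Cdt1 and Pola1. Without the 3 libraries whose sex label was contradicted (moderate WT replicate 2 and moderate mutant replicates 1 and 2), 9 fell and 0 rose, with 2964 genes called in place of 5202. Leaving out enriched mutant replicate 2 left 11 lower members, moderate WT replicate 1 left 12, and enriched mutant replicate 1 or enriched WT replicate 1 or 3 left 13. With each library left out in turn, 4177 to 5563 genes were called in all in this contrast.

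Transcript length had a weak relation to the change, of like size over all genes and among the members. The 23 members that fell had a median transcript length of 2373 bases, the 3 that rose 5346 bases and the 21 others 2796 bases. Across the 47 members, Spearman's rho between length and the enriched change was 0.24, and across 13403 genes with a length it was 0.22. Genes are not independent replicates, and all points share the same libraries. For the change on the moderate diet, rho with length was -0.07 for members and -0.11 for all genes. With GC content rho for the enriched change was -0.04 for members and -0.10 for all genes. The part of length in the result was not tested.

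Other genes of replication and S phase, a list of 57 genes that are no members, had counts in both directions. On the enriched diet 18 fell and 6 rose, with a median of -0.15, where 16.8% of all genes fell and 14.4% rose. Of the 57, 0 passed on the moderate diet (median -0.05). On the moderate diet 7 of these were lower and 1 higher at an unadjusted p under 0.05 (edgeR), where 23.4% of all genes were under it in either direction, and DESeq2 and limma-voom passed 0. Tyms, which makes thymidylate with a folate cofactor, was at -0.64 ± 0.10 on the enriched diet (adjusted p = 0.000455) and -0.25 ± 0.10 on the moderate diet (adjusted p = 0.126). Pole3, a small subunit of polymerase epsilon, was at -0.43 ± 0.07 (adjusted p = 0.000823), the phosphatase Cdc25a at -0.38 ± 0.08 (adjusted p = 0.00294) and E2f3 at -0.34 ± 0.07 (adjusted p = 0.00313) on the enriched diet. Of 22 genes of mitosis, 5 fell and 1 rose on the enriched diet (median -0.07), against the same 16.8% and 14.4% of all genes. On the moderate diet 0 of the 22 passed (median 0.01), with 2 higher at an unadjusted p under 0.05, 1 higher by DESeq2 and 0 by limma-voom. Aurka (-0.27 ± 0.09, adjusted p = 0.026) and Cdc20 (-0.25 ± 0.08, adjusted p = 0.0268) fell and the checkpoint kinase Bub1 rose (0.31 ± 0.08, adjusted p = 0.0106).

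Inhibitors of cyclin-dependent kinases went up and down. Of 6 tested (7 listed), 2 rose and 1 fell on the enriched diet. Cdkn1b (p27) rose by 0.59 ± 0.12 on the log2 scale (adjusted p = 0.00182), from 37.6 ± 5.23 to 54.7 ± 10.1 CPM (SD, n = 4). Cdkn1a (p21) rose by 0.93 ± 0.20 (adjusted p = 0.00277), from 6.15 ± 0.85 to 11.8 ± 3.06 CPM. Cdkn1c (p57) fell by 0.37 ± 0.11 on the log2 scale (adjusted p = 0.0153). On the moderate diet 1 of the 6, Cdkn2b, rose, at a level under 1 CPM.

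Markers of early neurons ran against the members among the mutants of each diet. The 6 markers (Tubb3, Elavl3, Stmn2, Dcx, Neurod1 and Isl1, 0 of them at 0 in any library) summed to 154, 185, 177 and 217 CPM in moderate WT and 163, 127, 110 and 180 CPM in moderate mutants. They summed to 171, 135, 214 and 227 CPM in enriched WT and 195, 255, 124 and 228 CPM in enriched mutants. Moderate and enriched mutant replicate 3, with the most replication RNA of their groups, had the least early neuron RNA. All 6 were lower in mutants on the moderate diet (median log2 fold change -0.38) and all 6 higher on the enriched diet (median 0.24). The difference between these genotype effects had a median of 0.63, with 0 passing in edgeR. None of the 6 passed in the genotype contrast on either diet with edgeR, DESeq2 or limma-voom (1 lower on the moderate and 1 higher on the enriched diet at an unadjusted p under 0.05), and the part of neurons in the result was not tested.

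**Figure D5:**
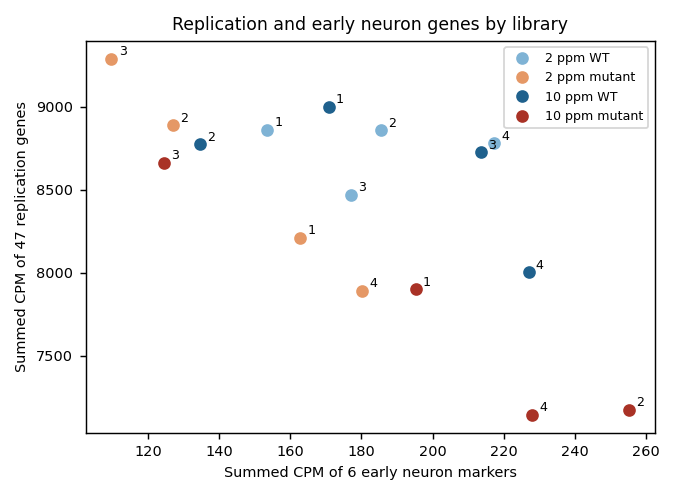
Summed CPM of the 47 replication genes (vertical axis, not starting at 0) against summed CPM of 6 early neuron markers (horizontal axis) in the 16 libraries, coloured by group and numbered by replicate. The mutants of each diet run from high replication and low neuron RNA (replicate 3) downwards to the right.

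The hypoxia response list rose in mutants, with 12 of 12 genes past the threshold on each diet. Their mean log2 score, centred over all libraries, was 1.15, 1.34, -0.21 and 1.19 in moderate mutants and 1.39, 1.47, 1.00 and 1.30 in enriched mutants, with WT at -1.32 to -0.66. Adm, which encodes adrenomedullin, was at 0.946 ± 0.21 CPM in enriched WT and 37.4 ± 9.84 CPM in enriched mutants (SD, n = 4). In both diets the mutant with the lowest score, replicate 3, was also the one with the most replication RNA. The other mutants did not keep that order. Moderate mutant replicate 2 had the highest score of its group and, at 8886 CPM of the members, more than replicates 1 and 4. Enriched mutant replicate 4 had a lower score than replicates 1 and 2 and the least replication RNA (7144 CPM). Enriched mutant replicate 3 was also the library with 189 CPM of Prl8a2. Erythroid markers summed to 2404 to 6357 CPM in moderate WT and 1222 to 3303 CPM in moderate mutants, and to 1474 to 3739 CPM in enriched WT and 703 to 3548 CPM in enriched mutants, with Hba-a1 at 0 in each library. All 7 tested had a negative log2 fold change on each diet (median -0.96 on the moderate and -0.58 on the enriched diet). Of these, 1 passed on the moderate diet (Epor) and 2 on the enriched diet (Epor and Klf1). Cardiomyocyte markers summed to 5.18 to 8.12 CPM in moderate WT, 2.46 to 7.02 CPM in moderate mutants, 5.90 to 7.64 CPM in enriched WT and 2.76 to 5.93 CPM in enriched mutants. The 5 tested had a median of -0.52 on the moderate and -0.86 on the enriched diet, and 0 passed with edgeR on either diet. At an unadjusted p under 0.05, 1 was lower on the moderate and 2 on the enriched diet, and DESeq2 and limma-voom each passed 1 as lower on each diet. Of 7 endothelial markers, 2 rose on the moderate diet, and 2 rose (Flt1 and Pecam1) and 3 fell (Emcn, Tek and Tie1) on the enriched diet. Their sum was 316 to 372 CPM in moderate WT and 360 to 419 CPM in moderate mutants, and 322 to 384 CPM in enriched WT and 348 to 371 CPM in enriched mutants. Visceral endoderm markers reached 111 CPM in enriched mutant replicate 4. The part of hypoxia or of blood, heart, vessel or endoderm RNA in the members' change was not tested.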

How the data were processed

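RNA of 16 embryo heads was sequenced with TruSeq RNA version 2 libraries, per the labels' protocols. Per the submitters' processing notes, FastQC 0.11.5, TopHat2 2.1.1, SAMtools 1.8, HTSeq 0.9.1, DESeq2 1.22.2 and the build mm10 were used by the authors; the annotation, counting mode and strand option are not given in the sources used here. As deposited, values are whole-number read counts per gene symbol with no normalization, and 5 summary lines were left out of totals and tests (13.7 to 17.0% of uniquely aligned reads fell on no gene).

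Genes with a minimum of 10 counts in 4 or more libraries were fitted with edgeR 4.0.16 (R 4.3.3; quasi-likelihood, TMM scaling) over all 16 libraries, with a coefficient per group and the labelled sex. P-values were adjusted by Benjamini-Hochberg over all genes tested, and 0.05 was the threshold. CPM values use the scaled library totals, and scores are mean log2 CPM with a prior count of 2. Lengths and coordinates come from GENCODE vM21 by symbol. The fit was tested on simulated data. Alternatives were median-of-ratios scaling, DESeq2 1.42.0, limma-voom (limma 3.58.1), other filters, other handling of sex, a replicate block, the compared groups alone, an adjusted p of 0.1 and leaving out libraries. Library pairs of a group differed by more than sampling noise, so none was counted as a copy.

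The members and lists were chosen with earlier results of these data known. Values in every library are given for the 2 members of each role with the smallest p in the genotype effect averaged over diets, and for members past the threshold against the direction of the median. Of the wider list 4 genes are named by the same p, and of the other lists up to 3. Mcm2, Dut, Ung and other members without such values are named to account for all 47.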

Additional observations from a re-analysis of the deposited data

Results flagged for a closer look

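In 188 groups of 4 libraries (47 genes in 4 groups), 11 had a library far from the other 3, and chance gives about 1 in 20. Moderate mutant replicate 3 was high in 3 of them: 57.5 CPM of the origin recognition gene Orc1 against 47.6 to 48.1 CPM, 29.3 CPM of Gins3 against 22.3 to 23.2 CPM, and 195 CPM of Pold3 against 164 to 169 CPM. Moderate mutant replicate 2 held 141 CPM of Pold2 against 109 to 114 CPM in the others. In moderate WT, replicate 2 was high for the helicase activator Cdc45 (84.6 against 77.6 to 78.1 CPM) and replicate 4 low for the polymerase subunit Pole2 (35.3 against 36.8 to 37.0 CPM).

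On the enriched diet, WT replicate 4 was low for the reductase subunit Rrm1 (407 against 459 to 464 CPM) and for Ccne1 (122 against 141 to 144 CPM). WT replicate 2 was high for Pola1 (119 against 95.9 to 99.2 CPM), and WT replicate 1 for Chaf1b (129 against 113 to 115 CPM). Enriched mutant replicate 3 was also high for Chaf1b, at 117 CPM against 91.0 to 93.3 CPM.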

How the results depend on the processing

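No member's call changed sign in any setting. In the moderate genotype contrast (1 member higher, 0 lower, 1106 genes), DESeq2 gave 2 higher and 1 lower, no filter 0 higher, the compared groups alone 0 higher and 719 genes, the libraries without a contradicted sex label 0 higher and 105 genes, leaving out the 3 libraries that stood apart (chosen after seeing the data) 0 higher and 2 lower, and an adjusted p of 0.1 gave 2 higher, 2 lower and 1906 genes. In the enriched contrast (3 higher, 23 lower, 26 called), sex read from counts gave 1 higher among 19 called. The compared groups alone gave 0 higher and 14 lower, and the libraries without a contradicted sex label 1 higher among 18 called. No sex covariate and no filter each gave 20 called. For the average over diets (4 higher, 21 lower, 5202 genes), no filter gave 13 lower, and the libraries without a contradicted sex label 0 higher, 9 lower and 2964 genes. DESeq2 passed 1 gene for diet in WT, 3 in mutants and 1 in the average, against 0. Where the number of all genes called is not given, the member counts do not show whether the members or all genes shifted. The cause of these shifts was not tested.

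Leaving out each library in turn gave 0 to 3 higher, 0 to 5 lower and 538 to 2107 genes on the moderate diet, 1 to 4 higher, 10 to 24 lower and 3023 to 4872 genes on the enriched diet, 4 to 5 higher, 11 to 21 lower and 4177 to 5563 genes in the average, and 0 to 1 gene for diet in mutants. The members' median ran from -0.23 to -0.14 (enriched), -0.06 to 0.02 (moderate) and -0.12 to -0.06 (average).

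Same-numbered libraries' deviations from their group means correlated from -0.291 to 0.505, and those of differently numbered libraries from -0.444 to 0.404. The highest values, 0.505 and 0.456, joined enriched WT replicate 4 to replicate 4 of the enriched and the moderate mutants. Whether the replicate numbers mark libraries that share a batch or litter was not tested. With the replicate block, 2 members were higher and 26 lower on the enriched diet (4979 genes), and 1 higher and 2 lower on the moderate diet (1453 genes). The smallest count of a member in any library was 415 reads.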
